A study of Mus musculus with 16 samples.

Results

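The SLC25 family is the set of nuclear-encoded carriers that move metabolites across the inner mitochondrial membrane. It was examined here as all genes whose array symbol is Slc25a followed by a number and whose probe set carries that symbol alone. These were 46 of the 22180 genes measured. Each had 1 probe set. A further probe set, listed under Slc25a35 together with its neighbour Rangrf, was left out.

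SLC25 proteins share a fold of repeated membrane helices and mostly work as exchangers, taking a substrate in one direction against another in the opposite direction. They link cytosol and matrix: ADP and phosphate enter for ATP synthesis, acylcarnitines enter for oxidation, and citrate and malate are exchanged. In fat cells, citrate that leaves the mitochondrion supplies acetyl-CoA for fatty acid synthesis, a route that is active after feeding.

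The samples were gonadal white adipose tissue, a visceral fat depot, from male C57BL/6 mice aged 3 to 4 months and sampled in the morning. Of 16 arrays, 8 were from fed mice, which ate freely, and 8 from mice after a 16 hour fast, and no allele or transgene is given for either group. Whether every array stands for 1 mouse of its own is not said in the labels, and the spread behind the p-values may in part be technical. In tissue RNA, fewer cells of a type and less RNA per cell cannot be told apart. The adipocyte list was high on all arrays, with a mean log2 value of 11.25 to 11.48 in fed and 11.19 to 11.41 in fasted arrays over 7 measured genes. Differences are fasted minus fed on the log2 scale, and a gene is called at a limma adjusted p under 0.05 over all 22180 genes. Of the 7 adipocyte genes Cidec was called higher (0.25), and Plin1 (-0.84) and Retn (-0.25) were called lower. Over all genes 8.49% were called higher and 10.7% lower. Among genes that reached a linear value of 20 on at least 8 arrays, as all 7 did, 34.6% were called. Levels are not compared between carriers, since probe sets differ in brightness.

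Fasting moved carrier transcripts both ways. Of the 46 members 12 rose (26.1%) and 10 fell (21.7%), and 24 did not pass the test. Over all genes 8.49% rose and 10.7% fell, 19.2% in all, against 47.8% of the members. When array medians were subtracted, 54.7% of all calls were higher, against 44.3% without it, and 12 members rose and 8 fell. A linear value of 20 was reached on at least 8 arrays by 34 members and by 10832 of all genes, and of these 21 members (61.8%) and 34.6% of the genes were called. The median difference was 0.026 over the members and -0.0042 over all genes. In 11 members the 8 fasted arrays lay entirely outside the range of the 8 fed arrays, 5 above (3.03% of all genes) and 6 below (3.45% of all genes), against 6.48% of all genes in either direction. Without the 3 arrays that stood apart in earlier results of these data (fed replicates 2 and 3, fasted replicate 7), 7 members rose and 10 fell.

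**Figure D1:**
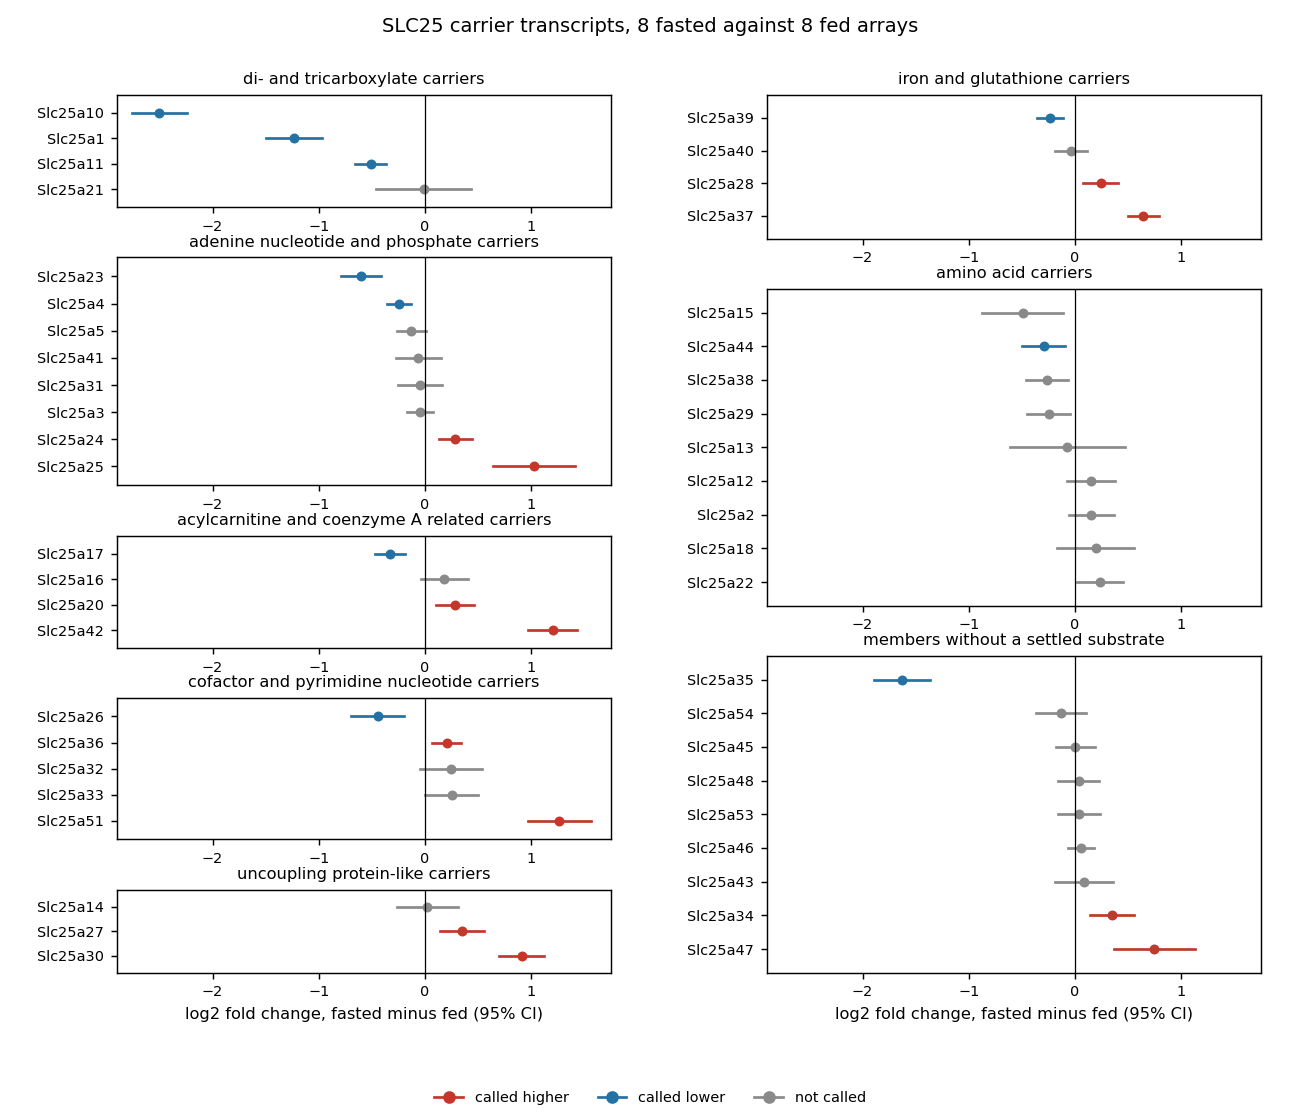
Difference between fasted and fed arrays (x axis, log2 scale) for the 46 SLC25 transcripts, grouped by substrate; points are differences, bars 95% confidence intervals (n = 8 per group), and colour shows the call. Slc25a10, Slc25a35 and Slc25a1 lie farthest to the left and Slc25a51, Slc25a42 and Slc25a25 farthest to the right.

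Of 4 carriers of di- and tricarboxylates 3 fell (75%), against 10.7% of all genes. Among genes that reached a linear value of 20 on at least 8 arrays, as 3 of the 4 did, 34.6% were called. Slc25a10, Slc25a1 and Slc25a11 were lower on every fasted array than on any fed array, and the remaining member of these 4, Slc25a21, a carrier of oxoadipate, was dim and did not pass the test. Slc25a10 is the dicarboxylate carrier, which exchanges malate or succinate for phosphate. Its lowest, median and highest log2 values were 7.03, 7.37 and 7.45 in fed arrays and 4.39, 4.84 and 5.29 in fasted arrays. All 8 fasted arrays were low, and the highest of them lay well under the lowest fed array. The difference was -2.50 (SE 0.12, limma adjusted p = 1.89e-10), a 5.66-fold lower level, and rank 8 among the falls of all genes.

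Slc25a1 is the citrate carrier, which exports citrate in exchange for malate. Its values were 9.82, 10.10 and 10.71 in fed and 8.56, 8.99 and 9.29 in fasted arrays (lowest, median, highest), without overlap. It fell 2.35-fold (difference -1.24, SE 0.13, limma adjusted p = 9.78e-07). Slc25a11, which exchanges oxoglutarate for malate in the malate-aspartate shuttle, lay between 8.08 and 8.33 in fed and between 7.41 and 7.86 in fasted arrays. Its fall was 1.43-fold (difference -0.51, SE 0.069, limma adjusted p = 2.51e-05). For Slc25a21 the fed mean was 2.89 ± 0.48 and the fasted mean 2.88 ± 0.47 (SD, n = 8), with a 95% interval of the difference from -0.46 to 0.43.

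Among the fasted arrays Slc25a1 and Slc25a11 varied together, with Pearson's r = 0.835 (exact permutation p = 0.00866, adjusted p = 0.0231, n = 8). By rank, Spearman's rho was 0.833 (exact permutation p = 0.0154, adjusted p = 0.041). Without fasted replicates 2 and 7, the farthest from the median of Slc25a11, r was 0.761. In fed arrays r was 0.715 (exact permutation p = 0.0457, adjusted p = 0.0915, n = 8), and -0.104 without replicates 1 and 2, so the relation there rested on those arrays. For Slc25a10 and Slc25a1 among fasted arrays no relation passed the test (r = 0.101, exact permutation p = 0.802, adjusted p = 0.802, n = 8; rho = 0.0238, exact permutation p = 0.977), and r was 0.496 without replicates 1 and 8. The remaining pairs were Slc25a10 with Slc25a1 in fed arrays (r = 0.453, rho = 0.238) and Slc25a10 with Slc25a11 in fed (r = 0.624, rho = 0.452) and fasted arrays (r = 0.18, rho = 0.286), with adjusted p from 0.164 to 0.774 for r. Without the 2 farthest arrays of each, r was 0.355, -0.136 and 0.258. These 6 relations and 2 with a liver list below made a family of 8 over which the p-values were adjusted, and the labels give no batch within which to repeat them.

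The start regions of Slc25a1 and Slc25a10, the called exchangers of citrate and malate with the larger falls, are shown from RefSeq (build GRCm38.p6), 250 bases before to 50 bases after the annotated start, read 5′ to 3′ on the gene's strand. Capitals mark a match to any of 6 motifs searched on both strands: the E-box CACGTG, the cAMP response element TGACGTCA, the FOXO element GTAAACA, a sterol element TCACNCCAC, an NRF1 element and the glucocorticoid response element. The Slc25a1 region is chr16:17928170-17928469 on the minus strand and that of Slc25a10 is chr11:120491587-120491886 on the plus strand.
Slc25a1: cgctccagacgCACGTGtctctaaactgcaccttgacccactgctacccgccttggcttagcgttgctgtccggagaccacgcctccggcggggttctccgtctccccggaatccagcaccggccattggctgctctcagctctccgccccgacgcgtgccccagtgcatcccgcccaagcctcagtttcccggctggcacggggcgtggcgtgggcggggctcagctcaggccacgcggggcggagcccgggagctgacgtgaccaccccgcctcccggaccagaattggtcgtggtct
Slc25a10: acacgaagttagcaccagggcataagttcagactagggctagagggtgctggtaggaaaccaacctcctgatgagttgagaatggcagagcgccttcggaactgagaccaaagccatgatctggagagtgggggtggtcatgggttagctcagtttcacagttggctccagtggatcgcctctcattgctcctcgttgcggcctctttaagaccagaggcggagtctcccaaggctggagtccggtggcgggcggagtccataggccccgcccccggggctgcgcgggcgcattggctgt
Slc25a1 held 1 E-box, which starts 239 bases before the annotated start, and Slc25a10 held no match in this window. Of 46 members 36 had an entry, and 7 of these held an E-box, against 8.09% of 27025 genes with entries. Both regions were rich in G and C, at 69.3% in Slc25a1 and 59.7% in Slc25a10.

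The carriers of adenine nucleotides and phosphate divided. Of 8 members 2 fell (25%), 2 rose (25%) and 4 did not pass the test, against 10.7% and 8.49% of all genes. The share called was 50%, against 34.6% among all genes that reached a linear value of 20 on at least 8 arrays, as 6 did. The exchangers of ATP-magnesium for phosphate, which set the size of the matrix adenine nucleotide pool and respond to calcium, took opposite directions. Slc25a25 lay at 5.94, 6.42 and 6.70 in fed and 6.76, 7.46 and 7.97 in fasted arrays (lowest, median, highest), so the groups did not overlap, though their edges nearly met. It rose 2.04-fold (difference 1.03, SE 0.18, limma adjusted p = 4.26e-04). The fasted values fell into a lower set of 4 arrays between 6.76 and 7.15 (replicates 1 to 4) and an upper set of 4 between 7.76 and 7.97, and the labels name nothing that separates them. Fasted replicates 1 to 4 lay apart from 5 to 8 in 6 of the 46 members, 5 of them called: besides Slc25a25, replicates 5 to 8 were the higher in Slc25a42 (7.09 to 7.46 against 7.59 to 7.85), Slc25a30 (7.01 to 7.16 against 7.19 to 7.41), Slc25a17 (7.74 to 7.91 against 7.97 to 8.22) and the uncalled Slc25a5, and the lower in Slc25a35 (6.12 to 6.72 against 5.70 to 6.04). This split was seen in the values and was not tested. Its share over all genes was not counted, so it is not read as a trait of the carriers. Slc25a24, of the same kind, rose 1.22-fold (difference 0.28, SE 0.073, limma adjusted p = 0.00816), from 7.27 to 7.78 in fed to 7.71 to 7.95 in fasted arrays. That call was lost without the 3 arrays that stood apart (adjusted p = 0.0686).

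Slc25a23, the third of these exchangers, went the other way. Its values were 8.58, 8.85 and 9.003 in fed and 7.97, 8.26 and 8.48 in fasted arrays, with all fasted arrays below all fed arrays, and it fell 1.52-fold (difference -0.60, SE 0.088, limma adjusted p = 5.63e-05). Slc25a41, related to these but without calcium-binding domains, was dim, with fed arrays at 2.37 ± 0.17 and fasted arrays at 2.31 ± 0.24 (SD, n = 8). The ADP/ATP translocase Slc25a4 fell 1.18-fold, from 9.03 to 9.17 in fed to 8.73 to 8.95 in fasted arrays (difference -0.24, SE 0.054, limma adjusted p = 0.00268), a small step without overlap. Its close relative Slc25a5 had a difference of -0.13 (95% interval -0.27 to 0.0074, limma adjusted p = 0.202). Slc25a3, the phosphate carrier that feeds ATP synthase, averaged 8.61 ± 0.060 (SD) when fed and 8.57 ± 0.10 when fasted, with an interval of the difference from -0.17 to 0.076. The translocase Slc25a31, known from male germ cells, was dim in both groups.

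RefSeq lists 3 start regions for Slc25a25, and the first, chr2:32424017-32424316 on the minus strand, is shown because it held the 1 match among them, a cAMP response element that starts 150 bases before the annotated start.
Slc25a25: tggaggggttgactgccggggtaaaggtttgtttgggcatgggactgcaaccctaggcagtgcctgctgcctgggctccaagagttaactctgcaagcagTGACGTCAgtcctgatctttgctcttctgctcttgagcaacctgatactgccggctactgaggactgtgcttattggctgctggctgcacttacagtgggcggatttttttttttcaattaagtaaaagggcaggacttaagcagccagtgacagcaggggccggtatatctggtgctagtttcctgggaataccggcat
The element was present in 2 of the 36 members with an entry, Slc25a25 and Slc25a36, both of which rose, and in 2.03% of all genes with an entry. Which start the arrays' signal comes from was not tested.

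**Figure D2:**
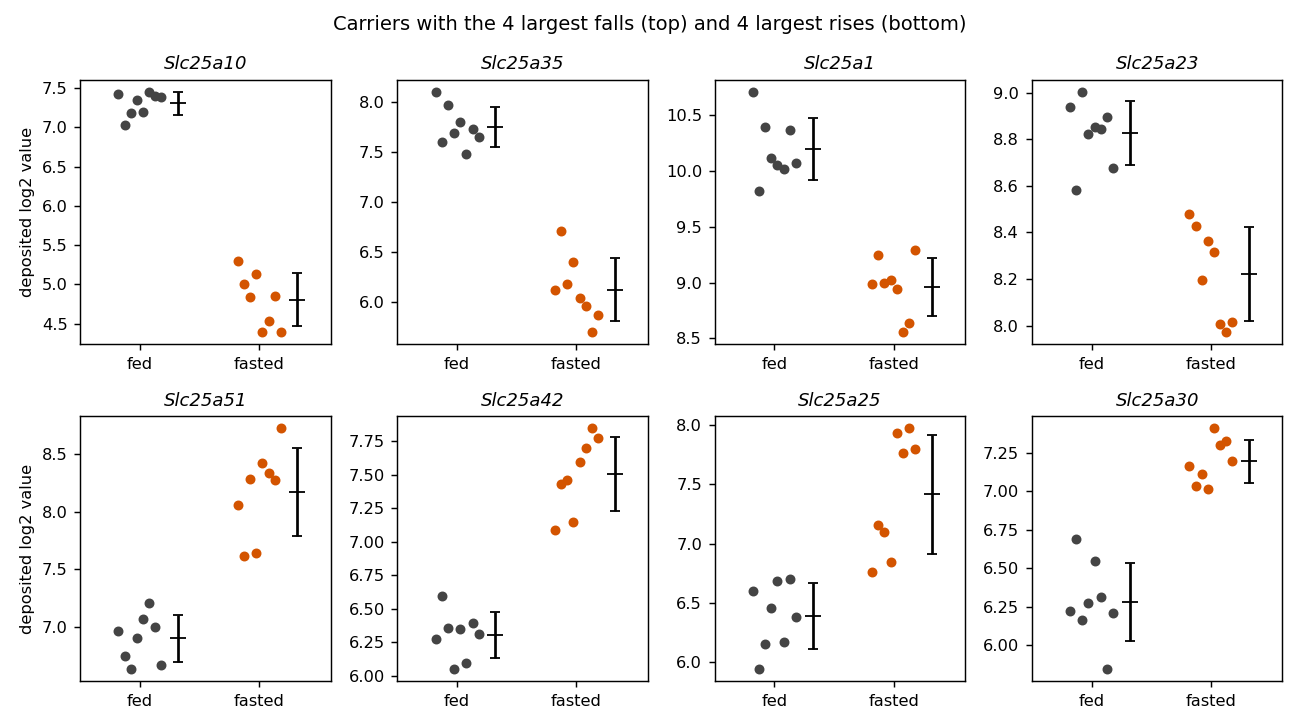
Deposited log2 value (y axis) on each of the 16 arrays for the 4 largest falls (top) and 4 largest rises (bottom); points run from replicate 1 to 8 within a group, and the bar is the mean with SD (n = 8). In all 8 carriers the fasted arrays lie outside the range of the fed arrays, and fasted replicates 1 to 4 lie apart from 5 to 8 in Slc25a25, Slc25a42, Slc25a30 and Slc25a35, with the widest gap in Slc25a25.

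Carriers tied to coenzyme A and acylcarnitine rose in 2 of 4 cases and fell in 1, against 8.49% and 10.7% of all genes. The share called was 75%, against 34.6% among all genes that reached a linear value of 20 on at least 8 arrays, as all 4 did. Slc25a42 carries coenzyme A into the matrix in exchange for adenine nucleotides. Its values were 6.05, 6.33 and 6.60 in fed and 7.09, 7.53 and 7.85 in fasted arrays, so every fasted array was above every fed array. It rose 2.30-fold (difference 1.20, SE 0.11, limma adjusted p = 2.98e-07). Slc25a20, the carnitine-acylcarnitine carrier that brings long-chain acyl groups to beta-oxidation, rose 1.22-fold (difference 0.28, SE 0.085, limma adjusted p = 0.0249). Fed arrays lay between 7.75 and 7.94, and fasted arrays between 7.64 and 8.28, with fasted replicate 1 lowest. The call of Slc25a20 was lost without fasted replicate 5 (adjusted p = 0.0518) or 8 (adjusted p = 0.0506), without the 3 arrays that stood apart (adjusted p = 0.0834) and by the exact rank sum test (adjusted p = 0.0541). Slc25a17, the peroxisomal carrier of coenzyme A and adenine nucleotides, fell 1.26-fold (difference -0.33, SE 0.068, limma adjusted p = 0.00145). Slc25a16, whose yeast counterpart is linked to coenzyme A, had a difference of 0.18 (95% interval -0.039 to 0.40).

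Slc25a42 has 1 start region in RefSeq, chr8:70212232-70212531 on the minus strand, shown as the largest rise that has an entry; it held none of the 6 motifs.
Slc25a42: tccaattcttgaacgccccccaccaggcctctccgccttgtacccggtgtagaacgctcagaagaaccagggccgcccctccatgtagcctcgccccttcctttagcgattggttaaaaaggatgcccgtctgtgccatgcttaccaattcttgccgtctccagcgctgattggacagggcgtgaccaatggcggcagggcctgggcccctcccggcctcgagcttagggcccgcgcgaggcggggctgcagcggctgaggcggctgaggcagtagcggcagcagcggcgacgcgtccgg
Of 9 risen members with an entry 1 held an E-box and 2 the cAMP response element, and of 7 fallen members 1 held an E-box. The FOXO, sterol, NRF1 and glucocorticoid elements were found in none of these 16. They were present in 4.05%, 1.44%, 5.19% and 0.537% of all genes with an entry, so their absence from 16 genes says little.

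The cofactor and nucleotide carriers included the largest rise of the family. Slc25a51 carries NAD+ into the matrix, where the dehydrogenases of fuel oxidation use it. Its values were 6.64, 6.94 and 7.21 in fed and 7.62, 8.28 and 8.72 in fasted arrays, without overlap, and fasted replicates 2 and 4 were lowest, at 7.62 and 7.64. It rose 2.40-fold (difference 1.26, SE 0.14, limma adjusted p = 2.77e-06). Slc25a36, a pyrimidine nucleotide carrier, rose 1.15-fold (difference 0.20, SE 0.065, limma adjusted p = 0.035). That call was lost when any of fed replicates 5, 6 and 7 or fasted replicates 2, 3, 5 and 8 was left out (adjusted p = 0.0588 to 0.0731), and with the replicate number as a block (adjusted p = 0.0792). Its relative Slc25a33 had a difference of 0.25 that did not pass (SE 0.12, limma adjusted p = 0.18). Slc25a26, which brings S-adenosylmethionine to mitochondrial methyltransferases, fell 1.36-fold (difference -0.45, SE 0.12, limma adjusted p = 0.0115). Fed arrays lay between 5.85 and 6.28 and fasted arrays more widely, between 5.08 and 6.05. Slc25a32, linked to folate and FAD, had a difference of 0.25 (95% interval -0.045 to 0.54).

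All 3 uncoupling protein-like carriers had positive differences, and 2 passed the test (66.7%), against 8.49% of all genes that rose. Among genes that reached a linear value of 20 on at least 8 arrays, as 2 of the 3 did, 34.6% were called. Slc25a30, first described in kidney, lay at 5.85, 6.25 and 6.69 in fed and 7.01, 7.18 and 7.41 in fasted arrays, without overlap, and rose 1.88-fold (difference 0.91, SE 0.10, limma adjusted p = 2.51e-06). Slc25a27, also called UCP4 and best known from brain, rose 1.27-fold (difference 0.34, SE 0.099, limma adjusted p = 0.0182), a call lost without the 3 arrays that stood apart (adjusted p = 0.0592). Slc25a14 was dim, with a difference of 0.019 (95% interval -0.27 to 0.31). Among family members that carry other symbols, Ucp3, an uncoupling protein of muscle and brown fat, rose 1.81-fold (difference 0.86, SE 0.12, limma adjusted p = 2.88e-05), and Ucp1, Mtch1 and Mtch2 did not pass the test. Ucp1, the defining gene of brown fat, was dim in both groups, at 2.85 in fed and 2.94 in fasted arrays on average, and the brown fat list of 7 measured genes had a mean log2 value of 3.90 to 4.52 in fed and 3.68 to 4.19 in fasted arrays.

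Iron carriers rose and a glutathione carrier fell. Slc25a37, or mitoferrin 1, which supplies iron for heme and iron-sulfur clusters, lay at 6.49, 6.70 and 6.99 in fed and 7.19, 7.36 and 7.42 in fasted arrays. The groups did not overlap, and the fasted arrays were tightly grouped, with an SD of 0.082. The rise was 1.56-fold (difference 0.64, SE 0.071, limma adjusted p = 2.57e-06). Slc25a37 is also known from red cell precursors and macrophages. Of the 8 genes of the macrophage list 3 rose and 1 fell, against 8.49% and 10.7% of all genes. Among genes that reached a linear value of 20 on at least 8 arrays, as all 8 did, 34.6% were called. The list had a mean log2 value of 8.82 to 9.09 in fed and 8.89 to 9.49 in fasted arrays. Of the red blood cell list 2 of 7 genes were measured, both dim, with means of 2.46 to 3.08 in fed and 2.48 to 3.05 in fasted arrays. The part of macrophages in the rise was not tested.

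Slc25a28, or mitoferrin 2, rose 1.18-fold (difference 0.24, SE 0.077, limma adjusted p = 0.0339). This call was lost without any 1 of fed replicates 1, 2, 5 and 8 or fasted replicates 1, 2, 5, 6 and 7 (adjusted p = 0.052 to 0.069). It was also lost without the 3 arrays that stood apart (adjusted p = 0.116), with the replicate number as a block (adjusted p = 0.0812) and after repeated quantile normalization (adjusted p = 0.0538). Slc25a39, a glutathione carrier, fell 1.18-fold (difference -0.24, SE 0.06, limma adjusted p = 0.0083). For its relative Slc25a40 the fed mean was 6.03 ± 0.15 and the fasted mean 6.00 ± 0.10 (SD, n = 8), with a 95% interval of the difference from -0.19 to 0.12. The call of Slc25a39 was lost when array medians were subtracted and without the 3 arrays that stood apart.

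Of 9 amino acid carriers 1 fell (11.1%) and none rose, against 10.7% and 8.49% of all genes. Among genes that reached a linear value of 20 on at least 8 arrays, as 6 of the 9 did, 34.6% were called. Slc25a44, which carries branched-chain amino acids and is known from brown fat, fell 1.23-fold (difference -0.30, SE 0.095, limma adjusted p = 0.0346). Its fed arrays lay between 7.22 and 7.57 apart from fed replicate 2 at 6.92, and its fasted arrays between 6.93 and 7.32. The call was lost without any 1 of fed replicates 1, 3, 4, 5, 6 and 7 or fasted replicates 2, 4, 6 and 7 (adjusted p = 0.0549 to 0.0707), with the replicate number as a block (adjusted p = 0.0576), after subtraction of array medians (adjusted p = 0.137) and by the exact rank sum test (adjusted p = 0.0912). The other 8, none of which passed, had differences from -0.49 to 0.23. Among them were the aspartate-glutamate carriers of the malate-aspartate shuttle, Slc25a12 (difference 0.15, 95% interval -0.077 to 0.38) and Slc25a13 (-0.075, interval -0.62 to 0.47), and the glutamate carriers Slc25a22 (0.23, interval 0.015 to 0.45) and Slc25a18, which was dim. The ornithine carrier Slc25a15 had the largest difference without a call, -0.49 (SE 0.18, limma adjusted p = 0.0679), and the glycine carrier Slc25a38, used in heme synthesis, one of -0.26 (SE 0.094, limma adjusted p = 0.0609). Slc25a29, of basic amino acids, and Slc25a2, an ornithine carrier, were dim.

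**Figure D3:**
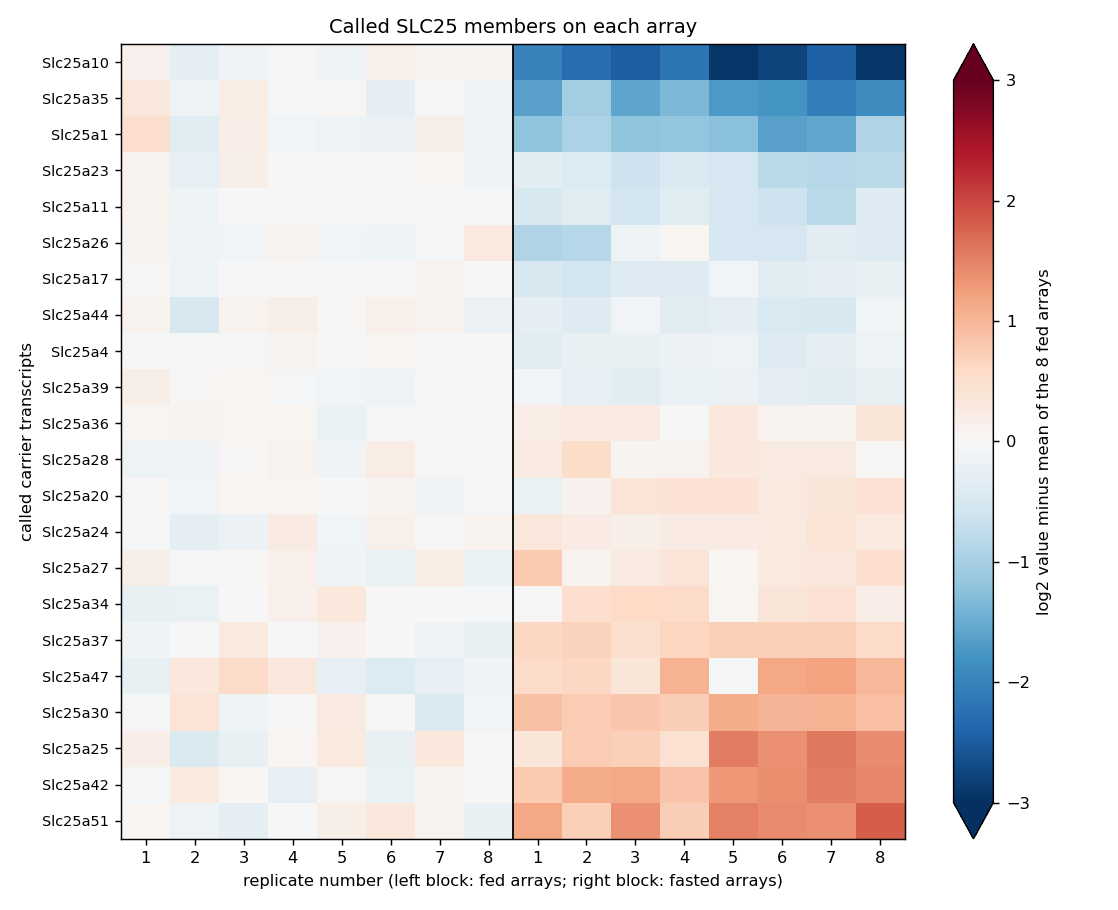
Log2 value minus the mean of the 8 fed arrays (colour, scale to the right) for the 22 called carriers (rows, ordered by difference) on each array (columns, by replicate number, fed left and fasted right). Slc25a10 and Slc25a35 are low and Slc25a51, Slc25a42 and Slc25a30 high on all 8 fasted arrays, while the carriers in the middle rows differ little from the fed mean on single arrays.

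Of 9 members without a settled substrate 1 fell (11.1%), 2 rose (22.2%) and 6 did not pass, against 10.7% and 8.49% of all genes. The share called was 33.3%, against 34.6% among all genes that reached a linear value of 20 on at least 8 arrays, as 4 did. Slc25a35 had the largest fall after Slc25a10. Its values were 7.48, 7.71 and 8.10 in fed and 5.70, 6.08 and 6.72 in fasted arrays, without overlap, and it fell 3.09-fold (difference -1.63, SE 0.13, limma adjusted p = 3.1e-08). Fasted replicate 2 was the highest of the fasted arrays and still lay below the lowest fed array. Slc25a34, a near relative of Slc25a35, rose 1.27-fold at a dim level, from 2.80 to 3.33 in fed to 3.06 to 3.62 in fasted arrays (difference 0.34, SE 0.098, limma adjusted p = 0.0171), and is the 1 called member that did not reach a linear value of 20 on at least 8 arrays. Its call was lost without the 3 arrays that stood apart. Slc25a46, which sits in the outer membrane and acts in mitochondrial dynamics, had a difference of 0.056 (95% interval -0.066 to 0.18), and Slc25a45 one of 0.0039 (interval -0.18 to 0.19). Slc25a43, Slc25a48, Slc25a53 and Slc25a54 were dim and had differences from -0.13 to 0.084.

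Slc25a47 is known as a carrier of liver mitochondria. Its values were 4.23, 4.48 and 5.20 in fed and 4.61, 5.45 and 5.86 in fasted arrays, so the groups overlapped. It rose 1.68-fold (difference 0.75, SE 0.18, limma adjusted p = 0.00587). Liver transcripts were present on these arrays at levels that varied among them, and the mean log2 value of 17 measured liver genes lay between 5.51 and 8.43 in fed and between 5.74 and 7.89 in fasted arrays. Of these 17 genes 2 rose, Apoc3 and Cyp2e1, and none fell, against 8.49% and 10.7% of all genes. Slc25a47 followed this mean within fed arrays (r = 0.924, exact permutation p = 0.00313, adjusted p = 0.0125, n = 8; rho = 0.881, exact permutation p = 0.00724, adjusted p = 0.029) and within fasted arrays (r = 0.939, exact permutation p = 4.96e-04, adjusted p = 0.00397, n = 8; rho = 0.881, exact permutation p = 0.00724, adjusted p = 0.029). Leaving out fed replicates 2 and 3 and fasted replicates 3 and 5, whose liver means were farthest from their group's median, r was 0.842 in fed and 0.826 in fasted arrays. With the liver mean as a covariate the difference was 0.71 (SE 0.095, limma adjusted p = 2.92e-05), against 0.75 without it. This fit adjusts only for the mean of the list, and the part of liver RNA in the rise was not tested.

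The same set of transcripts was then placed beside the amino acid carriers with the widest spread, a choice made after their values were seen. Slc25a13, the aspartate-glutamate carrier of liver, varied from 4.10 to 5.96 in fed and 3.79 to 5.35 in fasted arrays, and r with the liver mean was 0.779 in fed (exact permutation p = 0.00905, adjusted p = 0.0181 over 12 relations, n = 8; rho = 0.738, adjusted p = 0.0917 by exact permutation) and 0.901 in fasted arrays (exact permutation p = 0.00332, adjusted p = 0.0133, n = 8; rho = 0.833, adjusted p = 0.0369). For Slc25a15, of the urea cycle, r was 0.557 in fed (exact permutation p = 0.134, adjusted p = 0.178, n = 8; rho = 0.381) and 0.863 in fasted arrays (exact permutation p = 0.00523, adjusted p = 0.0157, n = 8; rho = 0.905, adjusted p = 0.029). Without the 2 farthest arrays r was 0.847 and 0.776 for Slc25a13 and 0.382 and 0.909 for Slc25a15 in fed and fasted arrays. With the liver mean as a covariate Slc25a15 was called lower (difference -0.52, limma adjusted p = 0.0139) and Slc25a13 was not called (difference -0.13, adjusted p = 0.683). Both carriers were highest on fed replicate 2 and fasted replicate 7, as were Slc25a12, Slc25a18 and Slc25a21. The motile cilia list was also highest on these arrays, with mean log2 values of 5.39 and 4.81, and so was the dim epididymis list (2.98 and 2.92). The liver list was highest on other arrays, fed replicate 3 (8.43) and fasted replicate 4 (7.89). The part of liver or ciliated cells in the spread of these carriers was not tested.

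**Figure D4:**
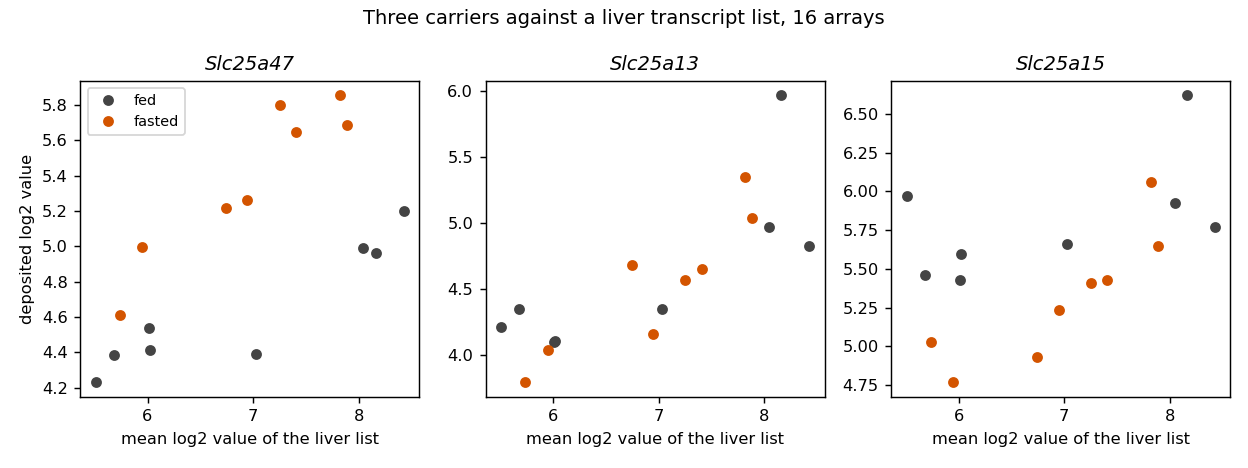
Deposited log2 value of Slc25a47, Slc25a13 and Slc25a15 (y axes) against the mean log2 value of 17 liver transcripts (x axis) on the 8 fed and 8 fasted arrays; each point is 1 array. Fasted arrays lie above fed arrays of like liver mean for Slc25a47, the groups mix for Slc25a13, and for Slc25a15 7 of the 8 fasted arrays lie below the fed median.

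The enzymes on either side of the citrate and malate carriers fell with them. All 9 measured genes of this list fell (10.7% of all genes fell), with a median difference of -0.91 against -0.0042 over all genes, and in 7 the groups did not overlap (3.45% of all genes). Among genes that reached a linear value of 20 on at least 8 arrays, as all 9 did, 34.6% were called. The list was chosen with earlier results of these data known, so its count is not an independent test. Acly, which cleaves exported citrate to acetyl-CoA, fell by 1.90 on the log2 scale (SE 0.14, limma adjusted p = 2.6e-08). Me1, the cytosolic malic enzyme, fell by 1.05 (SE 0.10), and Idh1, the cytosolic isocitrate dehydrogenase, by 1.40 (SE 0.097). Fasn and Acaca, which use the acetyl-CoA, fell by 2.25 and 0.91, the citrate synthase Cs by 0.61, Idh2 by 0.52, and the malate dehydrogenases Mdh1 and Mdh2 by 0.50 and 0.28. Of the malate-aspartate shuttle enzymes, Mdh1 and Mdh2 fell, Got1, the cytosolic aspartate aminotransferase, rose by 0.93 (SE 0.16, limma adjusted p = 3.08e-04), and Got2, its mitochondrial form, had a difference of -0.31 that did not pass (SE 0.12, limma adjusted p = 0.0865).

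Of 5 carnitine acyltransferases measured, which make or use the substrate of Slc25a20, 1 fell, and it was the peroxisomal Crot (difference -0.59, SE 0.087, limma adjusted p = 6.5e-05). That is 20% called, against 34.6% among all genes that reached a linear value of 20 on at least 8 arrays, as all 5 did. Cpt1a (0.16), Cpt2 (-0.14), Crat (0.067) and Cpt1c (-0.024) did not pass. Of 16 other mitochondrial transporters and channels 7 fell (43.8%) and 3 rose (18.8%), with a median difference of -0.15. Over all genes 10.7% fell and 8.49% rose, and 34.6% were called among those that reached a linear value of 20 on at least 8 arrays, as all 16 did. Those that fell were the sideroflexins Sfxn5 (-1.13) and Sfxn2 (-0.57), the transporters Abcb10 (-0.64) and Abcb8 (-0.40), the pyruvate carrier subunit Mpc1 (-0.53), Letm1 (-0.48) and the outer membrane channel Vdac3 (-0.29). The sodium-calcium exchanger Slc8b1 (0.64), Sfxn1 (0.37), which carries serine, and Sfxn3 (0.27) rose. The calcium uniporter Mcu had a difference of -0.017 (95% interval -0.16 to 0.13).

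Among 13 genes of the machinery that imports carriers into the inner membrane, 3 fell and 1 rose, with a median difference of -0.082. That is 30.8% called, near the 34.6% among all genes that reached a linear value of 20 on at least 8 arrays, as 12 of the 13 did. Those that fell were Agk (-0.43) and Timm22 (-0.27), parts of the carrier insertion complex, and the small chaperone Timm8a1 (-0.31), which was dim. Tomm20, a receptor of the outer membrane, rose (0.35), and Tomm70a, the receptor that carriers bind, had a difference of 0.15 that did not pass (SE 0.087, limma adjusted p = 0.294).

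**Figure D5:**
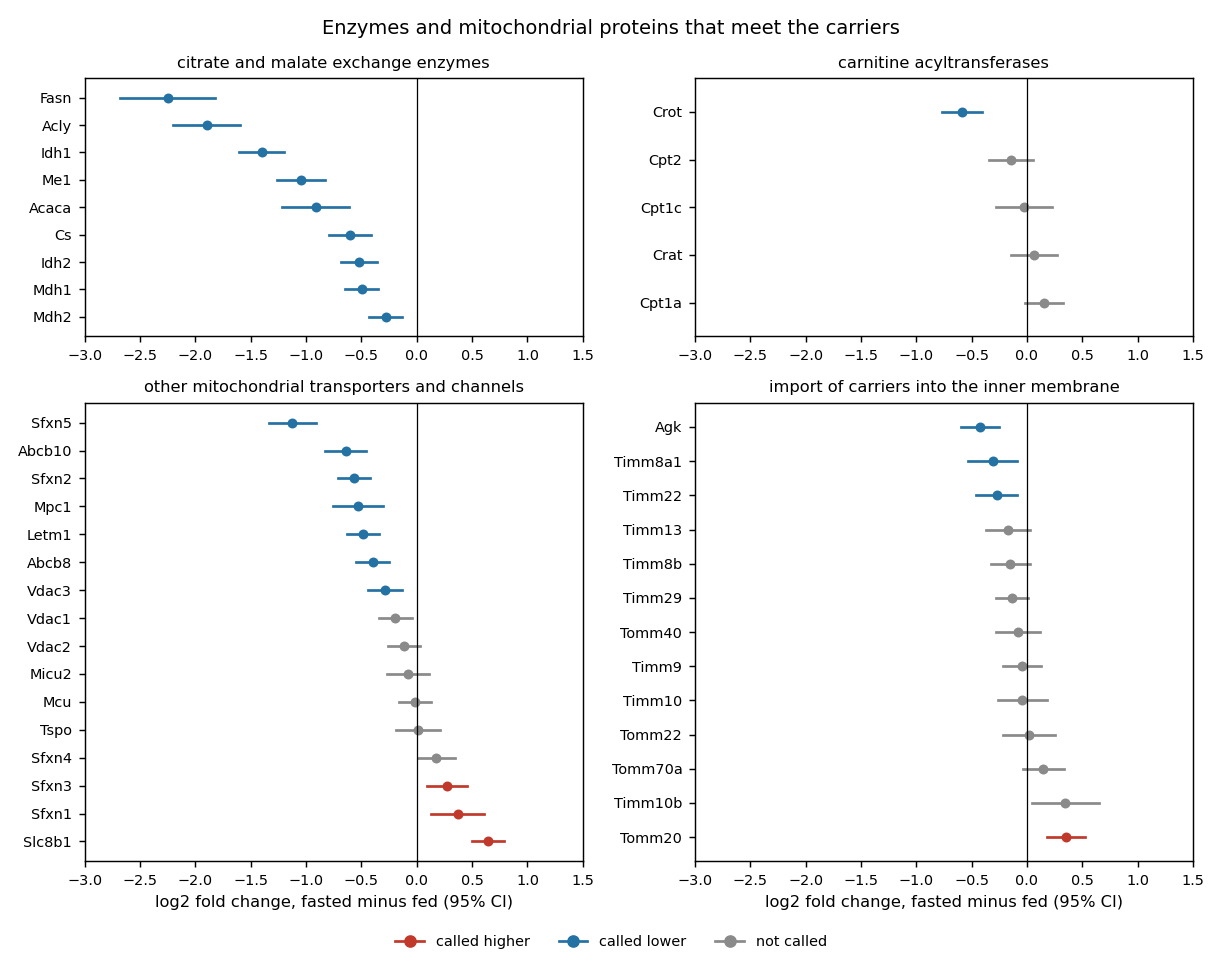
Difference between fasted and fed arrays (x axis, log2 scale) for enzymes of citrate and malate exchange, carnitine acyltransferases, other mitochondrial transporters and channels, and carrier import proteins; points are differences, bars 95% confidence intervals (n = 8 per group), and colour shows the call. All 9 enzymes of the first panel lie to the left of 0, whereas the other panels hold points on both sides.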

How the data were processed

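The values were the deposited log2 values of 16 Affymetrix whole-transcript arrays, 1 per sample. Per the submitters' processing notes they were made with RMA, which corrects background, normalizes between arrays and summarises each probe set; for the version, software and filters, the sources used here state nothing. RMA sets arrays to a like distribution, so a change is relative to the other transcripts, and low or saturated signal shrinks differences. Array medians lay between 3.60 and 3.69, and no 2 arrays were identical. The number of arrays limits the precision.

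Of 41345 probe sets, 23521 had 1 gene symbol in the platform annotation, 1814 had several and 16010 were unlisted. The highest-mean probe set per gene was kept, which left 22180 genes; all 46 members matched RefSeq symbols by gene ID. Groups came from the sample titles. The fasted minus fed contrast came from limma (version 3.58.1, under R 4.3.3), with group as the 1 factor in lmFit, then eBayes (Benjamini-Hochberg over all genes), with no further normalization or filter, and the code was tested on simulated data. Same-numbered fed and fasted arrays were checked for shared deviations from their group means: the correlation exceeded 0.1 in 2 of 8 pairs, so the numbers were not taken to pair the samples. Correlations used exact permutation over pairings. All called members were named, with the others described by group, and full ranges given for the 4 largest rises and falls. The members and lists were chosen with earlier results of these data known. Promoters are from RefSeq, build GRCm38.p6; motif search and figures used Python 3.11.15 and matplotlib 3.10.9. Alternatives covered filters, normalization, eBayes settings, the replicate number as a block, weights on arrays, arrays left out, a liver covariate, probe set choice, a rank sum test and stricter thresholds.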

Additional observations from a re-analysis of the deposited data

Results flagged for a closer look

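Values of 1 array lay far from the rest of its group in 5 of the 92 sets of 8 arrays examined (46 members in both groups); a test of this kind flags about 1 in 20 sets by chance. In fed replicate 2, Slc25a12 stood at 7.51 against 6.71 to 6.97 in the other fed arrays, Slc25a13 at 5.96 against 4.10 to 4.97, and Slc25a15 at 6.62 against 5.43 to 5.97. On that array the motile cilia list had a mean log2 value of 5.39 (2.71 to 3.49 in the other fed arrays) and the liver list one of 8.16; their part in these values was not tested. Without fed replicate 2 the difference of Slc25a12 was 0.24 (limma adjusted p = 0.0586) and that of Slc25a15 was -0.38. In fasted replicate 3, Slc25a40 stood at 5.77 against 5.98 to 6.12, and in fasted replicate 2 the dim Slc25a41 stood at 2.82 against 2.05 to 2.38.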

How the results depend on the processing

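Of the 22 called members 14 kept their call under every alternative other than the stricter thresholds; these include Slc25a10, Slc25a35, Slc25a1, Slc25a51, Slc25a42, Slc25a25, Slc25a30 and Slc25a37. No called member changed direction under any alternative. Leaving out each array in turn gave 9 to 13 members higher and 9 to 11 lower, with 19 to 21 of the 22 calls kept. The count of higher members was 7 without the 3 arrays that stood apart, 7 at an adjusted p under 0.01 and 6 when a 1.5-fold change was also asked for, which left 4 lower; fewer arrays and stricter thresholds are part of these settings. The numbers were not taken to pair the samples, and the labels do not say whether they do. With the replicate number as a block 10 rose and 9 fell, and the calls of Slc25a28, Slc25a36 and Slc25a44 were lost. Among the 24 members without a call, 7 changed sign, and the cause was not tested. Without the 3 arrays that stood apart the differences were 0.071 for Slc25a13, -0.066 for Slc25a14, 0.065 for Slc25a21, 0.032 for Slc25a31 and -0.029 for Slc25a45. With array weights they were -0.046 for Slc25a14, 0.067 for Slc25a21 and -0.0053 for Slc25a45. With array medians subtracted they were 0.026 for Slc25a21 and 0.0051 for Slc25a40, which was also positive with cyclic loess (0.0063) and repeated quantile normalization (0.018). With each array left out in turn the differences, which took both signs, ran from -0.19 to 0.12 for Slc25a13, -0.059 to 0.074 for Slc25a14, -0.16 to 0.13 for Slc25a21, -0.10 to 0.0053 for Slc25a31, -0.048 to 0.057 for Slc25a45 and -0.0046 to 0.075 for Slc25a48. Dim signal limits 12 members; with them left out of the fit, 11 of the 34 tested members rose and 12 fell, with Slc25a15 and Slc25a38 added to the falls.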

Other observations

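Some members overlap a neighbouring gene in RefSeq, and which transcript the probes of those sets match was not tested. For some called members the neighbour's values are not given here. Among these are Slc25a35, which shares 33 bases with Rangrf, and Slc25a37, which shares 7555 bases with the long non-coding RNA Gm27222. Slc25a26 shares 131 bases with Lrig1, a regulator of growth factor receptors, which fell 1.74-fold (difference -0.80, SE 0.096, limma adjusted p = 6.78e-06). Slc25a25 shares 1014 bases with Naif1 (difference -0.29, SE 0.11, adjusted p = 0.0644), and Slc25a11 shares 302 bases with Rnf167 (difference -0.14, SE 0.062, adjusted p = 0.135). Neither of these neighbours passed the test in limma. These neighbours were chosen for their place, after the values of the carriers were seen.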
